A study of Homo sapiens with 3 samples.

Results

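PPFIA2 is described here from the regions that were called for H3K27ac and H3K4me1 over and around the gene in LNCaP, a human prostate cancer line that came from a lymph node metastasis and responds to androgen. The members were all called regions that overlap chromosome 12 between 81.55 and 82.25 Mb of hg19, where PPFIA2 spans 81.652 to 82.153 Mb on the minus strand. The window held 45 of the 71077 H3K27ac regions and 67 of the 200812 H3K4me1 regions, and 38 and 56 of these lay at least partly within the gene. The gene was chosen because these same lists show long acetylated runs with little H3K4me1 in it, so the lengths and overlaps below are a description of the locus and were not tested.

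The series holds 3 samples of LNCaP, namely chromatin immunoprecipitated with an antibody to H3K27ac, the same with an antibody to H3K4me1, and an input sample without antibody. Cells were fixed with formaldehyde and chromatin was sheared by sonication. Each mark has 1 library and 1 list of called regions without read counts. The spread between replicates and the sequencing depth are therefore unknown, and a stretch without a region cannot be read as free of the mark. The input was not analysed here. The lists carry no gene names and no hg19 gene annotation was used, so the line was not checked against its prostate markers, and copy number was not measured.

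PPFIA2 encodes liprin-alpha-2, a scaffold protein of the presynaptic active zone, where liprin-alpha proteins bind receptor tyrosine phosphatases of the LAR family and help to place synaptic vesicle release sites. The gene is best known from neurons and is not a standard marker of prostate epithelium. H3K27ac, acetylation of lysine 27 of histone H3, is found at active promoters and enhancers. H3K4me1, monomethylation of lysine 4, marks enhancers, both those in use and those that are only prepared for use, and often flanks active promoters. In the RefSeq table of GRCh38.p14 the neighbouring protein-coding gene beyond the 3′ end is ACSS3, an acyl-CoA synthetase gene whose annotated end overlaps that of PPFIA2, followed by LIN7A. Beyond the 5′ end come CCDC59 and METTL25. The noncoding genes PPFIA2-AS1, PPFIA2-AS2 and LOC105369872 overlap PPFIA2 in that table. Neither mark tells the strands apart, so a region cannot be assigned to PPFIA2 or to an overlapping gene.

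RefSeq gives 3 start sites for PPFIA2 in GRCh38.p14, all on the minus strand of chromosome 12. The second start lies 161 kb and the third 390 kb downstream of the first within that build. Their positions were not transferred to hg19, so whether a called region lies at the second or the third start was not tested. If the distances held in hg19, 161 kb would fall within an H3K27ac region that lies 154.35 to 174.15 kb from the 5′ end. The distance of 390 kb would then fall near the edge of one at 387.35 to 389.8 kb. The 250 bases before each start are shown because the gene differed in its marks between its 5′ end and its body, as described below. They occupy chr12:81759351-81759600, chr12:81598372-81598621 and chr12:81369370-81369619 of GRCh38.p14, and are written 5′ to 3′ on the gene's strand. Capitals mark each CG pair and the letters TATAAA.
The first start: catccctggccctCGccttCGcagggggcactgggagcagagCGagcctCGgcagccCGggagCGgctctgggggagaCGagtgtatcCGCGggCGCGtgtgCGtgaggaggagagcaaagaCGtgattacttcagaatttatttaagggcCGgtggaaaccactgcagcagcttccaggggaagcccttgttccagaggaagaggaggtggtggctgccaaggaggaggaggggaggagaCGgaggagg
The second start: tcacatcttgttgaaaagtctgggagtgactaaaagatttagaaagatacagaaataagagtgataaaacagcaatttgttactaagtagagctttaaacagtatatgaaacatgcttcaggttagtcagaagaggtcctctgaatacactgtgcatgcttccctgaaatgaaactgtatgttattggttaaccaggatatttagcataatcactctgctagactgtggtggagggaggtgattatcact
The third start: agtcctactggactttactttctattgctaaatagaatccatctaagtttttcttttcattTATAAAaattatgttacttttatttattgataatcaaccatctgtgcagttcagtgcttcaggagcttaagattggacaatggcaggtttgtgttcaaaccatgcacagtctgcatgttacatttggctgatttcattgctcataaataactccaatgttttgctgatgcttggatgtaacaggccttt
The stretch before the first start holds 15 CG pairs and is 63.6% G and C. Those before the second and the third start hold 0 CG pairs and are 36.8% and 34.4% G and C. Across the 35116 promoter stretches of this length in the RefSeq table the median is 11.0 CG pairs, and 42.9% hold at least 15. The first start therefore lies in sequence of ordinary to high CG content, while the other starts lie in AT-rich sequence. TATAAA, the core letters of the TATA box, occurs before the third start only, and on either strand in 10.7% of all promoter stretches. The forkhead core TGTTTAC (2.98% of stretches) and the androgen receptor half-site AGAACA (12.4%) were searched on both strands and do not occur in these 3 windows, which says nothing of binding elsewhere in the gene. These motifs were chosen after the regions had been seen.

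Over the gene, H3K27ac regions covered 195 kb, or 38.9% of the 501.0 kb span, and H3K4me1 regions 58.7 kb, or 11.7%. Over the whole lists the shares were 4.65% and 9.45% of the chromosome spans, and over chromosome 12 they were 5.38% and 10.3%. H3K4me1 thus covered about as much of PPFIA2 as of the chromosome at large, and the name of a locus with little H3K4me1 holds only in relation to its H3K27ac. H3K27ac was 3.32 times as long as H3K4me1 in PPFIA2, against 0.492 times over the whole lists. Of the 195 kb of H3K27ac in the gene, 23.0% lay in H3K4me1 regions, against 71.5% over the whole lists. In the other direction, 76.3% of the H3K4me1 length of the gene lay in H3K27ac regions, against 35.1% over the whole lists.

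**Figure D1:**
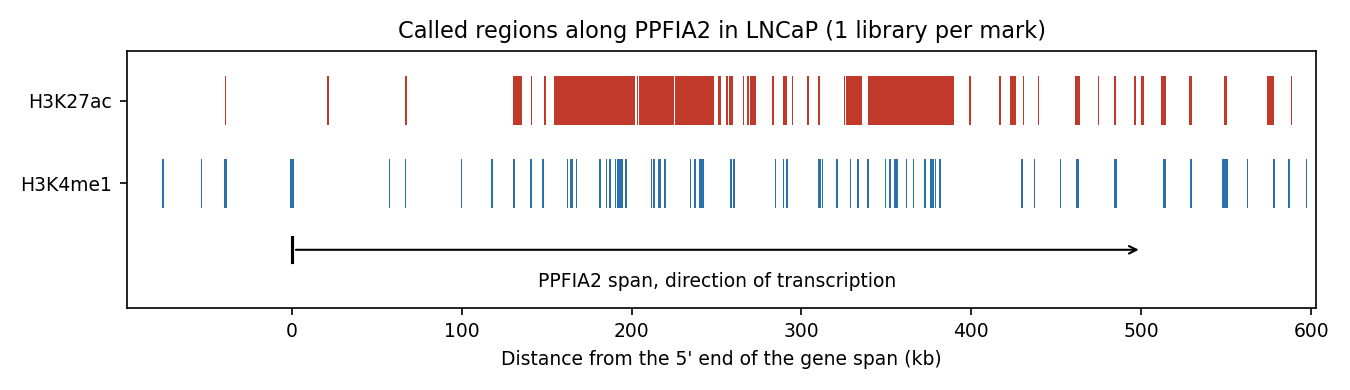
Each bar is 1 called region, drawn to scale by its distance in kb from the 5′ end of the PPFIA2 span, with H3K27ac above and H3K4me1 below and the gene as an arrow. H3K27ac forms 2 dense blocks inside the gene between 130 and 400 kb, with H3K4me1 as short separate regions. The 5′ end at 0 kb carries a called H3K4me1 region without a called H3K27ac region.

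The acetylation was neither even along the gene nor centred on its 5′ end. In steps of 50 kb from the 5′ end, H3K27ac covered 0.95, 1.25, 7.0, 45.5, 47.3, 15.3, 24.4, 40.6, 5.45 and 6.15 kb. H3K4me1 covered 1.25, 1.75, 4.30, 12.95, 9.95, 4.80, 6.75, 10.5, 1.95 and 4.5 kb in the same steps. The first 100 kb of the gene were nearly free of H3K27ac regions, and the steps from 150 to 250 kb were covered over 91% and 94.5% of their length. H3K4me1 was highest in the same steps as H3K27ac, but its highest step reached only 25.9% of the length. In the first and second steps H3K4me1 was the longer mark, and in the other 8 H3K27ac was. In the steps from 150 to 250 kb and from 350 to 400 kb, all H3K4me1 lay inside H3K27ac regions.

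**Figure D2:**
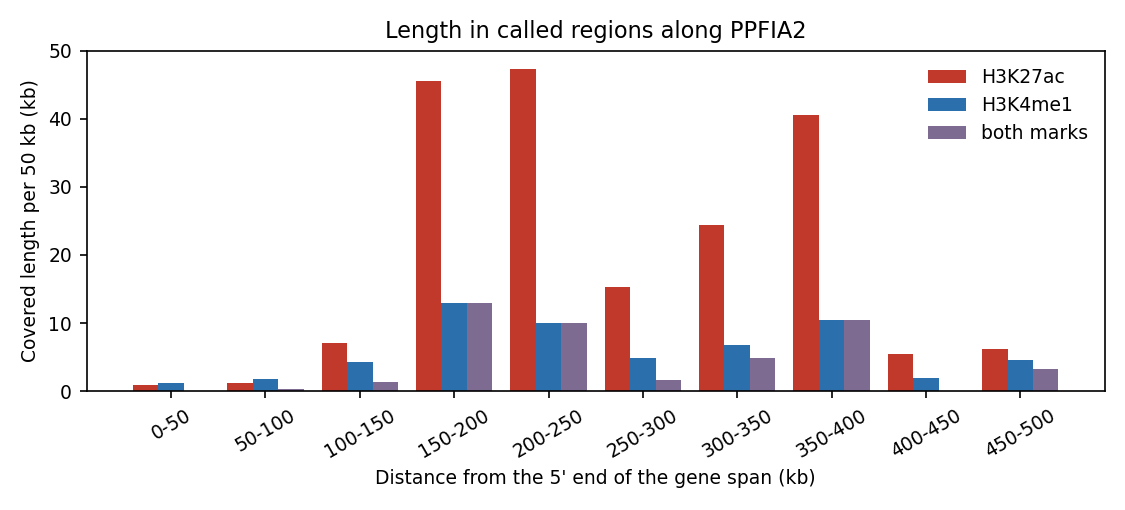
Bars give the length in kb covered by H3K27ac, by H3K4me1 and by both marks in each 50 kb step of the PPFIA2 span, counted from its 5′ end, with 1 library per mark and no error bars. H3K27ac peaks at 45.5 and 47.3 kb between 150 and 250 kb and again at 40.6 kb between 350 and 400 kb, while H3K4me1 stays at or below 12.95 kb.

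The 5′ end carried a called H3K4me1 region without a called H3K27ac region. An H3K4me1 region of 2300 bp, chromosome 12 from 82151751 to 82154050, reached from 1.05 kb upstream to 1.25 kb downstream of the 5′ end as the rule gives it, which is rounded to 1 kb. Its score was 0.003, a low value. The score is a number the authors deposited for each region without naming it, and it is lower in wider regions of both lists. The nearest H3K27ac region lay 19.75 kb away, inside the gene, from 82131051 to 82132000, and was 0.95 kb wide. On the upstream side the nearest was the 0.95 kb region from 82191601 to 82192550, which lay wholly within an H3K4me1 region. Among the 1106 H3K4me1 regions of the list that are 2300 bp wide, 730 (66.0%, exact 95% interval 63.1% to 68.8% for counting error over regions) overlapped H3K27ac, so a region of this width without H3K27ac is not rare. At the 3′ end the order was the reverse. The H3K27ac region from 81651801 to 81653200 spanned the 3′ end as the rule gives it, which is also rounded to 1 kb. Whether it spans the exact end is within that rounding. Another region of 0.6 kb lay beside it, and the nearest H3K4me1 regions were 11.4 and 10.7 kb from these.

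Joining of H3K27ac regions across gaps of up to 12500 bp gave 10 runs in the window, and 2 of them held 180 of its 207 kb of H3K27ac. The longer run, from 82022700 back to 81841801, began 130 kb from the 5′ end, was 181 kb long and consisted of 21 regions covering 118 kb, or 65.3% of it. The shorter run, from 81828000 back to 81753451, began 325.0 kb from the 5′ end, was 74.6 kb long and consisted of 6 regions covering 61.8 kb, or 82.9% of it. A gap of 13.8 kb separated them, little more than the joining distance. The other 8 runs held 0.95 to 10.85 kb of H3K27ac each, and 5 of them were a single region.

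Within the longer run the acetylation was packed into its middle. A core of 94.4 kb from 81904301 to 81998650 was covered over 98.3% by 5 regions. The part of the run on the 3′ side of the core, 62.5 kb long, held 12 regions and was covered over 29.5%. The part on the 5′ side, 24.1 kb long, was covered over 29.1%. The shorter run was mostly 1 region of 48.2 kb, with 3 regions covering 72.9% of the 14 kb on its 5′ side and 2 regions covering 27.5% of the 12.4 kb on its 3′ side. The share of H3K27ac length in H3K4me1 regions was 24.7% in the 94.4 kb core and 24.8% in the 48.2 kb region. It was 17.1% in the part of the longer run on the 3′ side of its core and 19.3% on the 5′ side, and 0% and 18.6% in the corresponding parts of the shorter run. A low share was therefore found in the cores and in their flanks alike.

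The window held 5 H3K27ac regions of 10 kb or more among its 45, whereas such regions made up 0.625% of the whole list. From the 5′ side they were 19.8 kb (81978851 to 81998650), 28.0 kb (81950701 to 81978700), 20.6 kb (81927901 to 81948500), 23.4 kb (81904301 to 81927650) and 48.2 kb (81765801 to 81814000) wide. All carried the lowest score of the H3K27ac list, 0.001. H3K4me1 regions covered 18.9%, 32.9%, 24.3%, 21.2% and 24.8% of their width in this order. The median over the 439 other H3K27ac regions of 10 kb or more was 88.2% (quartiles 66.5% and 97.1%). Of those 439, 32 (7.29%) had a share at or below the highest of the 5, so shares this low occur elsewhere in the list and are a minority. Among the 140 others of 15 to 50 kb, the range that holds all 5 PPFIA2 regions, the median was 80.0%, and 13 lay at or below 32.9%.

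**Figure D3:**
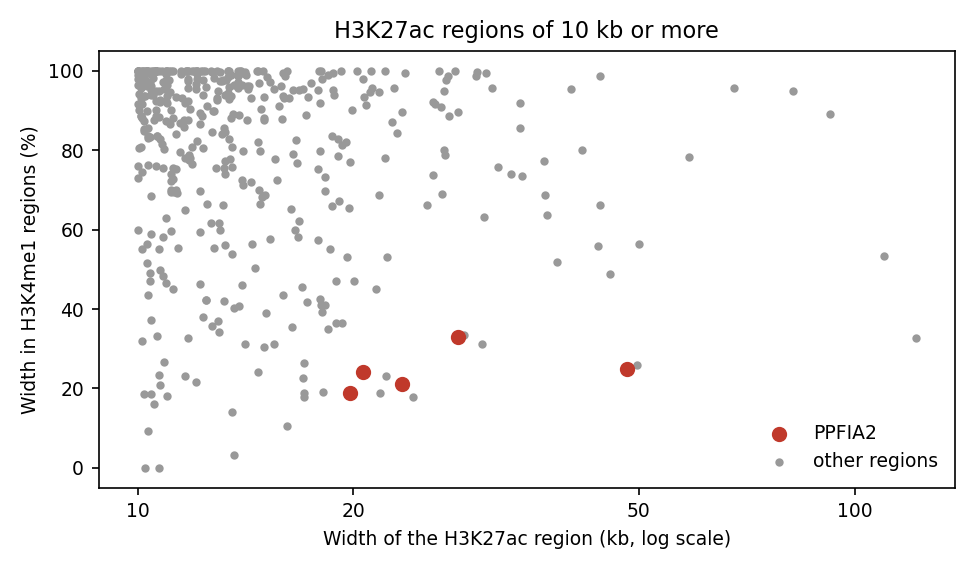
Each point is 1 H3K27ac region of 10 kb or more, by its width in kb on a log scale and the percent of its width that lies in H3K4me1 regions. The 5 PPFIA2 regions sit between 18.9% and 32.9%, and the median of the 439 others is 88.2%.

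H3K4me1 in these wide regions took the form of short islands. The 19.8 kb region held 3 H3K4me1 regions, the 28.0 kb region 6, the 20.6 kb region 4, the 23.4 kb region 3 and the 48.2 kb region 13. That is 1.29 to 2.70 islands per 10 kb with a median of 1.94, and the median over the 439 others was 2.07. The number of H3K4me1 regions per length was thus near that of other wide regions. Their combined length was smaller, which is what the gene was chosen for. Where H3K4me1 covers most of a wide region, a few long regions can fill it. The counts are therefore not alike in meaning and are not a separate result. The longest stretch of acetylation without H3K4me1 was 7.5, 6.80, 6.85, 9.05 and 9.10 kb in the 5 regions, and its median over the others was 0.95 kb.

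The distance from the edge of a wide region to its outermost H3K4me1 region was 6.25, 4.95, 4.75, 6.30 and 4.90 kb on the 3′ side and 7.5, 6.80, 6.85, 9.05 and 0 kb on the 5′ side. The 48.2 kb region is the exception, since an H3K4me1 region crosses its edge nearest the 5′ end and fills 850 bp of the outer 1 kb. The outer 1 kb held no H3K4me1 at 9 of the 10 edges, against 138 of the 878 edges (15.7%) of the 439 other wide regions. The PPFIA2 regions were chosen for little H3K4me1, which leaves more edges free of it, so these counts describe the regions and are not a separate result. Of the 5 regions, 4 are neighbours in 1 core, split by breaks of 150 to 700 bp, and the edges depend on how the authors' caller split the acetylation. With H3K27ac regions within 1 kb merged, an alternative chosen after seeing the data, the window held 3 regions of 10 kb or more. Their margins without H3K4me1, on the 3′ and then the 5′ side, were 6.30 and 7.5 kb in the merged core of 94.4 kb, 7.5 and 0 kb in a region of 50.8 kb, and 1.65 and 3.35 kb in one of 10.75 kb. The outer 1 kb then held no H3K4me1 at 5 of 6 edges, against 238 of 1580 (15.1%) in the others.

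**Figure D4:**
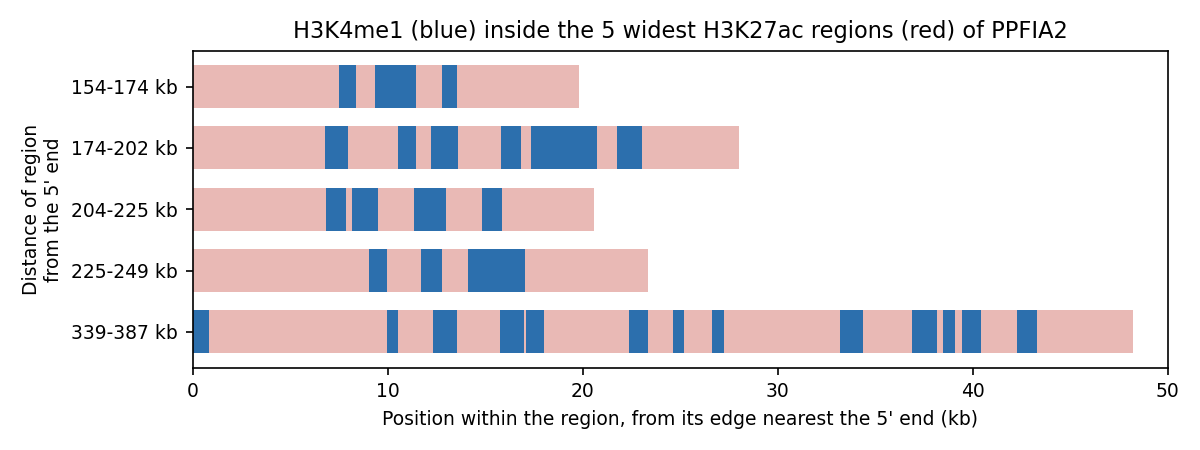
Rows are the 5 H3K27ac regions of 10 kb or more in PPFIA2 (red, to scale in kb from the edge nearest the 5′ end), named by their distance from the 5′ end of the gene, and blue marks the parts in H3K4me1 regions. No H3K4me1 lies within 1 kb of 9 of the 10 edges, and the 48.2 kb region carries 13 islands.

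Fewer than 50% of the H3K27ac regions of the window met H3K4me1, and the narrow ones mostly did not. Of the 45 H3K27ac regions, 19 shared at least 1 bp with H3K4me1 (42.2%, exact 95% interval 27.7% to 57.9%), and the background over the whole list was 83.1%. At least 50% of the width was covered in 8 of 45, with a background of 70.8%. Below 1 kb, 1 of 15 overlapped, against 62.8% of the 15439 regions of that width in the list. From 1 to 2 kb 7 of 16 did, against 82.6%, and from 2 to 4 kb 3 of 6, against 94.6%. All 8 regions of 4 kb or more overlapped H3K4me1, but over 18.7% to 32.9% of their width. In every width class the share was below that of the list in regions or in length. Neighbouring regions are not independent, so the interval covers counting error only and is too narrow.

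The 26 H3K27ac regions without H3K4me1 lay a median of 5.0 kb from the nearest H3K4me1 region, and at most 19.75 kb away. Of the 26, 5 lay within 1 kb of one. Among them was the 1.65 kb region from 81817251 to 81818900, which H3K4me1 touched without overlap. These distances were not taken for the 12037 H3K27ac regions without H3K4me1 in the whole list, so they have no background here. The widest of the 26 was 3.30 kb, from 81726851 to 81730150. Of the runs with more than 1 region, the one that holds it, from 81712901 to 81736450, had 4 H3K27ac regions and 0 overlap with H3K4me1.

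Most H3K4me1 regions of the window lay in acetylated sequence, and their widths were ordinary for the list. The median width of all 67 was 1000 bp, against 1050 bp over the whole list. Of the 67, 50 overlapped H3K27ac (74.6%, interval 62.5% to 84.5%), and the background over the whole list was 34.5%. H3K27ac covered 29.6% of the window, against 4.65% of the chromosome spans, and the part of that greater coverage in the overlap was not tested. In the list, overlap rose with width, from 12.6% of H3K4me1 regions below 1 kb to 100% of those of 10 kb or more. Overlapping regions of the list are therefore wider than the rest. The part of the coverage in the width comparisons below was not tested either. At least 50% of the width lay in H3K27ac for 44 of 67, with a background of 25.5%. The 50 had a median width of 1025 bp, against 1700 bp for the 69306 overlapping regions of the list, and 33 of them (66.0%) lay wholly inside an H3K27ac region, against 19.9% in the list. A score of at most 0.003 was found in 13 of the 50 (26.0%), against 57.2% of the overlapping regions of the list. The H3K4me1 regions within acetylated PPFIA2 thus had widths nearer to those of the list's regions without H3K27ac, whose median was 900 bp, and 12.3% of those had a score that low. A gene chosen for long H3K27ac with little H3K4me1 is bound to favour short H3K4me1 regions inside it. The widths, the regions wholly inside and the scores, which follow width, are therefore not a separate result. Over all 67 regions, 15 had a score of 0.003 or less (background 27.8%) and 19 a score over 0.05 (background 24.1%).

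The widest H3K4me1 region of the window, 3.4 kb from 81957951 to 81961350, lay inside the 28.0 kb H3K27ac region and had a score of 0.003. The next, 2.95 kb from 81910601 to 81913550, lay inside the 23.4 kb region. Next came the 2.35 kb region from 81603051 to 81605400 in the 3′ flank, of which 46.8% lay in H3K27ac. The 2.30 kb region of the 5′ end was the widest of the 17 without H3K27ac, whose median width was 800.0 bp.

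H3K4me1 was still denser inside the acetylated parts of the gene than outside them. It covered 23.0% of the H3K27ac length and 4.54% of the remaining length of the gene, a ratio of 5.07. Over the whole lists the values were 71.5% and 6.43%, a ratio of 11.1. The sequence of PPFIA2 outside H3K27ac therefore had somewhat less H3K4me1 than the rest of the chromosomes, and the difference between the ratios lay mainly inside the acetylated sequence.

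The 37 gaps between neighbouring H3K27ac regions of the gene had a median of 4.90 kb, against 13.6 kb over the list, and 11 of them (29.7%) were 1 kb or less, against 9.48% over the list. All 11 were at most 700 bp and lay between 130 and 400 kb from the 5′ end, in the stretch of the long runs. The gene was chosen for those runs, which brings short gaps with it, so the comparison with the list is a description only. The longest gap without H3K27ac, 62.2 kb from 82022701 to 82084850, separated the longer run from the 5′ part of the gene, and 3 H3K4me1 regions covered 1.70 kb of it. The next, 44.95 kb from 82086101 to 82131050, held 0.85 kb of H3K4me1, and the 21.0 kb between 82132001 and the 5′ end, held 1.25 kb, all of it in the region at that end. The other two of the 5 longest lay on the 3′ side of the runs, 20.95 kb from 81691951 to 81712900 with 0.95 kb of H3K4me1 and 17.0 kb from 81736451 to 81753450 with none. H3K4me1 thus covered 2.74%, 1.89%, 5.95%, 4.54% and 0% of these 5 gaps, against 6.43% of all sequence outside H3K27ac in the whole lists. Gaps of up to 9.60 kb lay inside the long runs too, since runs were joined across gaps of this size.

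The flanks of the gene differed from its body. The 3′ flank lies on the side of ACSS3, which overlaps the end of PPFIA2 in GRCh38.p14 and was not placed in hg19. In the 102 kb of the window beyond the 3′ end, 7 H3K27ac regions covered 11.6 kb and 8 H3K4me1 regions 10.6 kb, a ratio of 1.09, and 41.4% of the H3K27ac length lay in H3K4me1. In the 97.0 kb beyond the 5′ end, 1 H3K27ac region covered 0.95 kb and 4 H3K4me1 regions, including that of the 5′ end, covered 4.10 kb. At the limits of the window, the last H3K27ac region inside on the 3′ side was 1.05 kb wide (81564051 to 81565100), without H3K4me1. The first one outside was 2.5 kb wide and lay 0.35 kb beyond the limit, with 1.05 kb of it in H3K4me1. On the 5′ side the first H3K27ac region outside lay 131 kb and the first H3K4me1 region outside 108 kb beyond the limit. Within the gene, H3K27ac covered 180 kb and H3K4me1 48.2 kb between 130 and 400 kb from the 5′ end, where the long runs lie, a ratio of 3.74. Between that stretch and the 3′ end the lengths were 12.6 and 6.45 kb, a ratio of 1.95. Between the 5′ end and the stretch they were 2.20 and 4.10 kb, a ratio of 0.537, near the 0.492 of the whole lists. This part held only 2 H3K27ac and 6 H3K4me1 regions. H3K4me1 was thus the longer mark there, as over the lists, and H3K27ac was the longer mark in the rest of the gene.

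Few fixed windows of the genome held as great a length of H3K27ac. The gene was chosen for its long runs, whereas the borders of the windows can split an acetylated cluster. The count below is therefore not a measure of how rare such a length is. Of 6200 adjoining windows of 500 kb that do not touch PPFIA2, 4 held at least the 195 kb of H3K27ac of the PPFIA2 span, and the median window with any H3K27ac held 19.5 kb. PPFIA2 had 23.0% of its H3K27ac length in H3K4me1, against 35.8% to 59.1% in those 4 windows (median 43.4%). In all 4 the H3K27ac length was the greater, as in PPFIA2. A length of H3K27ac above that of H3K4me1 was therefore shared by these windows, which were picked by their H3K27ac.

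The long run of PPFIA2 was also set beside the 16 other joined clusters with at least 100 kb of H3K27ac. Since the gene was chosen for a low share of its long runs in H3K4me1, a low place was to be had. The order, and the widths and scores that go with a low share, describe the run and are no support. Its share of 23.2% in H3K4me1 was the lowest of the 17, followed by 32.4% on chromosome 4 from 101931751 to 102272500, 42.4% on chromosome 21 from 17642501 to 17997450 and 46.3% on chromosome X from 44730001 to 44951350. The median of the 16 others was 69.8% and the highest share 96.2%. H3K4me1 regions numbered 1.44 per 10 kb of the PPFIA2 run, against 1.24 to 3.35 in the 16 others (median 2.39). Their median width was 1025 bp, against 1100 to 3750 bp. A score of at most 0.003 was found in 23.1% of them, against at least 29.9% in each of the others. In sequence between the H3K27ac regions of the cluster, H3K4me1 covered 8.13%, against 7.82% to 76.9%, so in the gaps the PPFIA2 run was near the clusters of chromosomes 4 and 21.

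Lowering the limit to 50 kb of H3K27ac gave 85 clusters and brought in the shorter PPFIA2 run. The shares of the shorter and the longer run, 22.4% and 23.2%, were the lowest and the second lowest of the 85, again in the measure used for the choice. The next cluster, on chromosome 5 from 107568651 to 107692350 with 84.3 kb of H3K27ac, had 23.6%, so the PPFIA2 runs end a continuous range and do not stand apart from it. The median of the 83 others was 75.3%. In this larger set the longer run was not at the end of the range for the H3K4me1 regions themselves. Their median width was at most 1025 bp in 7 of the 83 others, and the share with a score of at most 0.003 was no higher than 23.1% in 7. With 1 library per mark, neither the order nor the distance between neighbours in it could be set against an error.

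**Figure D5:**
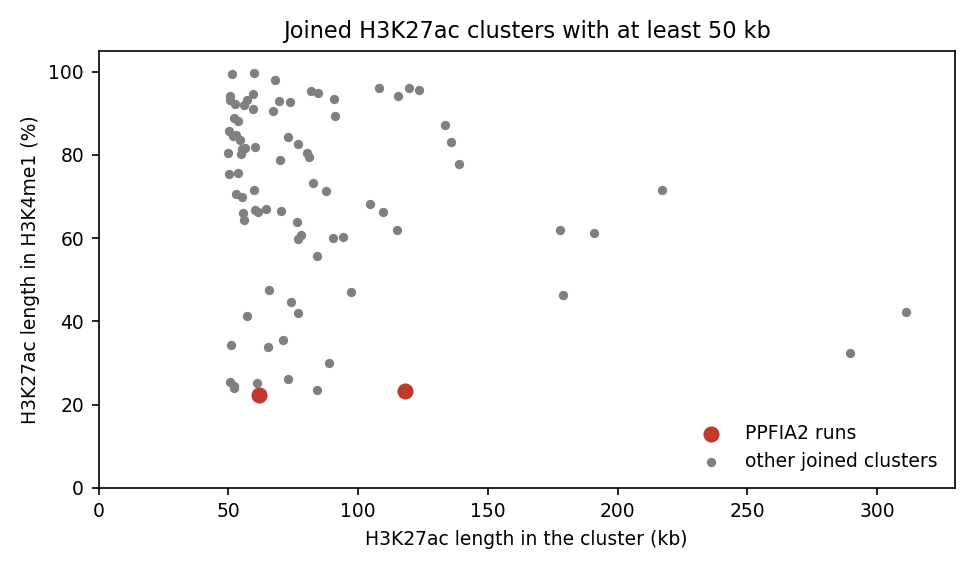
Each point is 1 joined H3K27ac cluster with at least 50 kb of H3K27ac, by that length in kb and the percent of it in H3K4me1 regions. The PPFIA2 runs lie at 22.4% and 23.2%, at the lower end of a range whose other 83 clusters have a median of 75.3%.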

How the data were processed

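ChIP-seq of H3K27ac and H3K4me1 was deposited for LNCaP with 1 library per mark. Reads were handled with Bowtie 0.12.8 and hg19, per the submitters' processing notes. What called the regions, at which threshold, with or without duplicate reads and with or without the input is not given in the sources used here. These choices set the number, width and splitting of regions. The authors deposited a chromosome, start, end and unnamed score per region. Scores reach 0.048 for H3K27ac and 0.093 for H3K4me1 and served only to rank regions within a list. The deposited starts and ends lie on a grid of 50 bp. Starts were read as 0-based and are printed counted from 1.

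Covered lengths and overlaps (at least 1 bp) were computed with numpy 2.4.6 and pandas 2.3.3 in Python 3.11.15 (figures with matplotlib 3.10.9), without the mitochondrial region. On 5 simulated pairs of lists of 400 regions the overlap was recovered with an error of 0 bp. Intervals are exact Clopper-Pearson (scipy 1.17.1). Promoters are from RefSeq, where 1 gene and 3 starts matched. The gene, its window and the measures were chosen with earlier results of these data known. The regions named are those of 10 kb or more, the widest H3K4me1 region, the 5 longest gaps, those at the gene's ends and clusters of at least 100 kb of H3K27ac; others were named after their values were seen.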

Additional observations from a re-analysis of the deposited data

How the results depend on the processing

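Of 27 alternative values, 21 stayed within the interval of the main value (shares of regions) or within 1.5-fold of it (lengths, counts, ranks), and 6 did not. The count of 21 does not measure robustness. A limit on H3K4me1 scores, for example, could not move the H3K27ac coverage of the span, 38.9%. The interval for H3K27ac regions overlapping H3K4me1, 27.7% to 57.9%, is wide, so 55.6% at scores up to the list median counted as unchanged from 42.2%. At scores up to the list median, the H3K27ac length of the window in H3K4me1 was 15.9% in place of 24.4%, and H3K4me1 covered 6.11% of the span in place of 11.7%, since fewer regions were kept. With at least 50% of the region covered, 17.8% of the H3K27ac regions counted as overlapping, in place of 42.2%. The 10 joined runs became 23 at a joining distance of 5 kb and 33 at 1 kb. The rank of the longer run was 2 among clusters of at least 50 kb. At 5 kb its longest piece held 99.2 kb of H3K27ac, under the limit of 100 kb, so that rank has no value. Edges of wide regions without H3K4me1 in the outer 1 kb numbered 5 of 6 after merging, in place of 9 of 10, an alternative added after seeing the data. No paired analysis was possible because there is a single library for each mark. Since depth is unknown, a stretch without a region may only be one with too few reads.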
